A study of Mus musculus with 4 samples.

Results

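The Sprr2 genes code for small proline-rich proteins of the epidermis and lie side by side on mouse chromosome 3. They were taken by exact symbol from count tables of 20611 genes: of 10 listed genes (Sprr2a1, Sprr2a2, Sprr2b, Sprr2d, Sprr2e, Sprr2f, Sprr2g, Sprr2h, Sprr2i and Sprr2k), 9 had a row. Sprr2g, which the GENCODE M21 annotation calls a polymorphic pseudogene, was not analysed here. The RNA came from the back skin of BALB/c mice, all male and 8 to 9 weeks old. Every mouse received 5% imiquimod (IMQ) cream, 47 mg a day, from day 1 to day 5, and skin was taken on day 6. One library came from skin with the cream alone (IMQ). A pair came from skin that also received a vehicle lotion about 1 h after the cream (IMQ+VEH, replicates 1 and 2). One came from skin that received the lotion with the dimethyl fumarate pro-drug isosorbide di-(methyl fumarate), called IDMF (IMQ+IDMF). Imiquimod activates Toll-like receptor 7 and causes psoriasis-like inflammation when rubbed on mouse skin. All 4 libraries therefore come from imiquimod-treated skin, and healthy skin was not analysed here.

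SPRR proteins are made in the upper epidermis and are cross-linked by transglutaminases into the cornified envelope, the protein shell that replaces the membrane of a dying keratinocyte. They bridge larger envelope proteins such as loricrin and involucrin. Sprr2 genes belong to the epidermal differentiation complex. They are low in resting skin and rise in psoriasis, in wounds, after ultraviolet light and when another envelope protein is missing. Sprr2d and Sprr2h are known among the genes that the antioxidant factor NRF2, a target of fumarates, raises in skin that lacks loricrin.

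The members are close copies of one another, which bears on how 50-base reads can be assigned to them. The first 60 coding bases of the 9 genes, from the GENCODE M21 transcripts of GRCm38, are printed to show how alike the sequences are that the counting had to separate. Capitals mark bases unlike the most common base at that position among the 9, with ties going to the base of Sprr2a1.
Sprr2a1: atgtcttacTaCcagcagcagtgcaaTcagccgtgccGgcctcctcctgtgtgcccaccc
Sprr2a2: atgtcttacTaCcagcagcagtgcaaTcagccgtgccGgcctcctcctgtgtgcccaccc
Sprr2b: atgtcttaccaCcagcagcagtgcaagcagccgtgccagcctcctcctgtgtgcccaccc
Sprr2d: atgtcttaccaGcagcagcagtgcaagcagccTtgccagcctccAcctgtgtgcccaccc
Sprr2e: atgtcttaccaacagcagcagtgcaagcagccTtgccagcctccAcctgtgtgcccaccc
Sprr2f: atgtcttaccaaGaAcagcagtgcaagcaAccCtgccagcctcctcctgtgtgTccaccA
Sprr2h: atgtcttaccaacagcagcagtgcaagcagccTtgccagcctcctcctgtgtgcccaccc
Sprr2i: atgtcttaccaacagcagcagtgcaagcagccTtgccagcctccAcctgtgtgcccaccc
Sprr2k: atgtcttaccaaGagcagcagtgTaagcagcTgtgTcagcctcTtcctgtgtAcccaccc

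Between 1 and 6 of these 60 bases set a gene apart from the most common sequence. Over the whole coding part, Sprr2a1 and Sprr2a2 were identical in all 249 bases. Sprr2e and Sprr2i shared 96.9% of aligned bases, Sprr2e and Sprr2f 90.0%, and Sprr2d and Sprr2e 84.7%. The least alike pair was Sprr2h and Sprr2k at 53.5%. Coding length without the stop codon ran from 204 bases in Sprr2k to 324 in Sprr2h.

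Identity over a coding part is not the same as identity over a whole read. Each gene's longest transcript was therefore divided into all windows of 50 bases, and each window was looked for in the transcripts of every other gene. In Sprr2a1, 96.3% of 2954 windows also occurred elsewhere, and in Sprr2a2 96.5% of 2818. Their main partners were each other and Sprr2a3, a further copy that is not one of the 10 listed genes. The shared portion was 13.7% in Sprr2b, 12.5% in Sprr2i, 10.2% in Sprr2e, 4.27% in Sprr2d and 0.714% in Sprr2f. It was 0% in Sprr2h and Sprr2k. On these transcripts, reads from Sprr2a1 and Sprr2a2 thus can seldom be told apart, while most windows were unique in each of the other 7 members.

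The deposited values followed this division. Sprr2a1 and Sprr2a2 had a count of 0 in each of the 4 libraries. The authors' FPKM values (fragments per kilobase of transcript and per unit of sequencing depth) for Sprr2a1 were nevertheless 320.2 in IMQ, 134 and 120.5 in IMQ+VEH replicates 1 and 2, and 108 in IMQ+IDMF. Those of Sprr2a2 were 318, 133, 117 and 107 in the same order. Sprr2a3 had both counts (22484, 8497, 5177 and 5010) and FPKM (945, 361, 277 and 249.9). Of 3084 genes with a count of 0 in all 4 libraries, 9 had an FPKM above 50 in each, and Sprr2a1 and Sprr2a2 were among them. A count of 0 here is therefore not a measure of absent RNA. Of the windows of Sprr2a1 and of Sprr2a2, 58.6% each also occurred in Sprr2a3. How shared reads were divided among these copies for FPKM is not known, so the FPKM values do not show which copy the RNA came from.

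The counted members lie on the + strand of chromosome 3 (GRCm38), each with 2 exons, in the order Sprr2b (92316620 to 92318085), Sprr2d (92339140 to 92340873), Sprr2e (92352143 to 92353449), Sprr2f (92365187 to 92366442), Sprr2h (92385685 to 92387324), Sprr2i (92407991 to 92409271) and Sprr2k (92432582 to 92433925). Sprr2a1 starts upstream of them at 92215799. The annotated span of Sprr2a2 (92215920 to 92256724) overlaps that of Sprr2a1. Sprr1b and Sprr1a lie downstream on the other strand.

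The 250 bases before the RefSeq start of each gene (build GRCm38.p6) were available for all 9 members. They are printed for Sprr2d, the most abundant member, for Sprr2h, which differed least between skin with the vehicle lotion and IMQ among the called members, and for Sprr2f and Sprr2k, which differed most. Capitals mark matches to the AP-1 motif TGANTCA and the octamer ATTTGCAT, searched on both strands.
Sprr2d, chr3:92338890-92339139, + strand: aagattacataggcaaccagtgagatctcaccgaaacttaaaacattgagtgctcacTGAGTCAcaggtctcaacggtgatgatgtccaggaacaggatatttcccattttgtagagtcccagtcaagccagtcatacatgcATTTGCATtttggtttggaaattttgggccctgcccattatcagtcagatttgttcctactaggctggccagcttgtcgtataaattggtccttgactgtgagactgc
Sprr2h, chr3:92385435-92385684, + strand: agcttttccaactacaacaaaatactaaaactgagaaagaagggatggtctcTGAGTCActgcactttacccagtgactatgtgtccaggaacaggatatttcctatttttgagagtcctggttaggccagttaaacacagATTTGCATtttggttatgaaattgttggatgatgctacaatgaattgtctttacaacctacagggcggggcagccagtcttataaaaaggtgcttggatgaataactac
Sprr2f, chr3:92364937-92365186, + strand: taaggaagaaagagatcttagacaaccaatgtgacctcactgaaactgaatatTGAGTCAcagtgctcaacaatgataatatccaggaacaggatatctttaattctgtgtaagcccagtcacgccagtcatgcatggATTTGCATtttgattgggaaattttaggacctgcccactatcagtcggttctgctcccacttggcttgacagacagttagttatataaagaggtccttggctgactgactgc
Sprr2k, chr3:92432332-92432581, + strand: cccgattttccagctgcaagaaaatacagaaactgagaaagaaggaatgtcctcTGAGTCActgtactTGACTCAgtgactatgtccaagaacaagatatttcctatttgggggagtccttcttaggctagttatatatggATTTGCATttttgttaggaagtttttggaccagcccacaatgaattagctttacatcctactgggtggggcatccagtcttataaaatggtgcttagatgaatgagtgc

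The AP-1 letters were found before 7 of the 9 members and before 6.87% of 27025 mouse genes. The octamer was found before the same 7 members and before 1.61% of genes, and the TATA box letters TATAAA before those 7 and before 13.0% of genes. The 7 are the members with counts. Their spacing was alike: counted from the start, the first AP-1 match began at -198 to -193, the octamer at -112 to -108 and the TATA box at -29 in each. Sprr2k held a second AP-1 match at -182. Sprr2a1 and Sprr2a2, whose printed windows would be identical to each other, held none of the 3 motifs in the window that RefSeq's start defines for them. The ETS letters AGGAAG occurred before 4 members and 29.2% of genes, and the antioxidant response element TGACNNNGC before Sprr2f and 10.1% of genes. The interferon response element, STAT (TTCNNNGAA) and Grainyhead (AACNGGTT) letters were found before 0 members, against 3.04%, 7.18% and 1.71% of genes. A match describes letters only, and members share ancestry, so they are not independent observations.

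**Figure D1:**
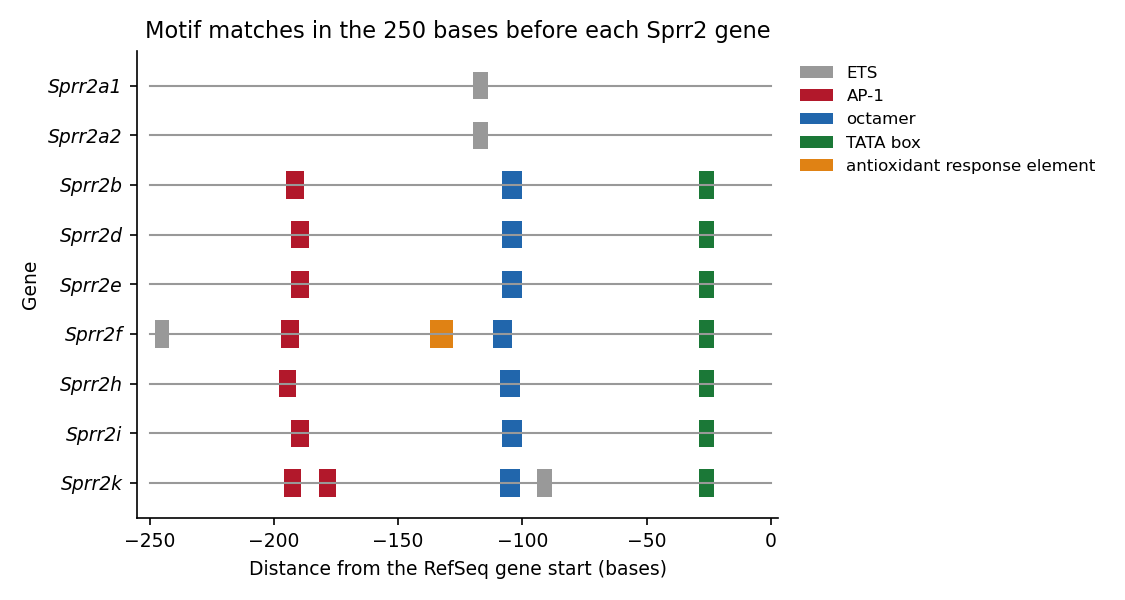
Motif matches in the 250 bases before the RefSeq start of the 9 Sprr2 genes; the x axis is the distance from the start in bases, each line is a gene and each block a match on either strand. The AP-1, octamer and TATA box blocks stand in nearly the same places in 7 genes, and Sprr2k has a second AP-1 block.

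Total counts were 21167149 to 26639628 per library, and counts were found for 16016 to 16648 genes. Of these totals the Sprr2 members took 0.334% in IMQ, 0.115% and 0.0923% in IMQ+VEH and 0.077% in IMQ+IDMF. Basal keratinocyte markers such as Krt5 and Krt14, of which all 9 listed genes were tested, summed to 9812 to 16364 CPM (counts scaled to library size), so the labelled skin tissue shows its defining markers. The sequencing core's number of IMQ+VEH replicate 2 stands apart from those of the other libraries; what that number reflects is not known from the labels.

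Skin with the vehicle lotion was first set against skin with the cream alone, which serves as the background for the compound. The 7 counted Sprr2 genes were lower in both lotion libraries than in the library with cream alone, as were 35% of all tested genes. The differences ran from 2.59-fold for Sprr2d to 12.5-fold for Sprr2f, with 52.6-fold for Sprr2k, which passed the filter on low counts only through its IMQ library. Of the 10 listed members, 6 (Sprr2b, Sprr2e, Sprr2f, Sprr2h, Sprr2i and Sprr2k) fell past the threshold of edgeR's quasi-likelihood test, which is an adjusted p of 0.05 over 15068 tested genes. Sprr2k could be among them only because it was high in IMQ. Among all tested genes 0.325% were called lower (49 genes) and 0.664% in either direction. All 7 tested members had an unadjusted p under 0.05 and a lower level, against 2.55% of all tested genes. The members and the gene lists were chosen with earlier results of these data known. Such counts therefore describe these genes and are not independent support. Sprr2d did not pass the adjusted threshold, Sprr2a1 and Sprr2a2 could not be tested and Sprr2g had no row.

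Sprr2d was the most abundant member. It had 1658 CPM in IMQ, 690 and 589 in IMQ+VEH replicates 1 and 2, and 435 in IMQ+IDMF. The IMQ library was the highest and the IMQ+IDMF library the lowest. The fitted log2 fold change of IMQ+VEH against IMQ was -1.38 (SE 0.42, edgeR adjusted p = 0.246). DESeq2 gave -1.37 with an adjusted p of 0.00218, so the call for this gene depends on the tool.

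Sprr2b, the member with most windows in common with the Sprr2a copies among those counted, had 759 CPM in IMQ, 199.6 and 102 in IMQ+VEH and 114 in IMQ+IDMF. The pair differed from each other by -0.97 on the log2 scale (replicate 2 lower), and IMQ stood above both. Its fitted log2 fold change was -2.33 (SE 0.39, edgeR adjusted p = 0.0174), a 5.04-fold lower level.

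Sprr2h, whose windows occur in no other gene's transcripts, had 427 CPM in IMQ, 116 and 166 in IMQ+VEH and 137 in IMQ+IDMF. Its fold change of -1.60 (SE 0.31, edgeR adjusted p = 0.043) was the smallest among the called members. The IMQ+IDMF value lay between the IMQ+VEH values.

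Sprr2e had 311 CPM in IMQ, while the IMQ+VEH pair had 56.1 and 58.3 and IMQ+IDMF had 49.1. The 3 lotion libraries lay close together, and the fitted log2 difference of IMQ+VEH to IMQ was -2.44 (SE 0.26, edgeR adjusted p = 0.000898). Its near copy Sprr2i had 163 CPM in IMQ, 20.4 and 25.7 in the IMQ+VEH pair and 17.0 in IMQ+IDMF. That gave a log2 fold change of -2.82 (SE 0.26, edgeR adjusted p = 0.000557).

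Sprr2f, known from the uterus as a gene that oestrogen induces, had 135 CPM in IMQ, 8.84 and 12.8 in IMQ+VEH and 4.87 in IMQ+IDMF. In counts these were 3429, 248, 262 and 109. The IMQ+VEH level was 12.5-fold below IMQ (log2 fold change -3.65, SE 0.30, edgeR adjusted p = 0.000222).

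Sprr2k had the lowest level and the widest difference. It had 448 counts in IMQ, with an exact 95% Poisson interval of 407 to 491. In the other libraries it had 9, 7 and 6 counts, with intervals of 4.12 to 17.1, 2.81 to 14.4 and 2.2 to 13.1 for IMQ+VEH replicates 1 and 2 and IMQ+IDMF. In CPM, IMQ was 55.0, 51.7 and 65.8 times the other 3 libraries in that order. The fitted log2 fold change was -5.72 (SE 0.57, edgeR adjusted p = 0.000718). Such intervals cover counting error only. The other 6 tested members had at least 109 counts in every library.

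**Figure D2:**
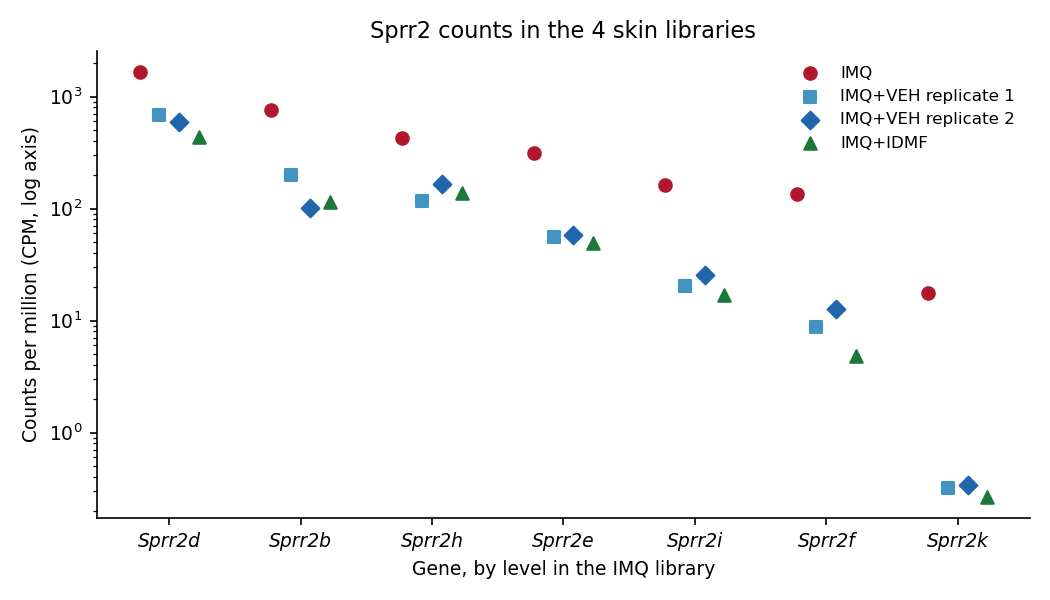
CPM (log axis) of the 7 counted Sprr2 genes in each of the 4 libraries, 1 point per library, genes ordered by their level in IMQ. The IMQ point is the highest for each gene. Its gap to the nearest other point is narrowest for Sprr2d (1658 against 690 CPM) and widest for Sprr2k, and narrower for Sprr2h than for Sprr2b. The gap from IMQ to IMQ+IDMF is narrower for Sprr2h (427 against 137 CPM) than for Sprr2d (1658 against 435 CPM).

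Taken in the order of their FPKM in IMQ (Sprr2d, Sprr2b, Sprr2h, Sprr2e, Sprr2i, Sprr2f, Sprr2k), the counted members differed more the lower they stood, with the exception that Sprr2b and Sprr2h changed places. The fitted fold differences in this order were 2.59, 5.04, 3.03, 5.43, 7.07, 12.5 and 52.6. Sprr2a1 and Sprr2a2, which had no counts, are not in this order and did not follow it. Their FPKM in IMQ (320.2 and 318) lay between those of Sprr2e and Sprr2i. Their log2 FPKM ratios of IMQ+VEH to IMQ, -1.26 to -1.44, were smaller in size than those of both neighbours. Which Sprr2a copy gave that FPKM is not known. Sprr2k, the end of this order, had 448 counts in IMQ and passed the filter on low counts only through that library. The order and the fold differences rest on the same single IMQ library. Whether neighbours in the order differ in fold was not tested. There was no such order along the chromosome, where Sprr2h (3.03-fold) stands between Sprr2f (12.5-fold) and Sprr2i (7.07-fold).

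The make-up of the family therefore differed between libraries. On the FPKM scale, which allows for transcript length, Sprr2d made up 42.2% of the 9 members' sum in IMQ, 55.4% and 53.5% in IMQ+VEH and 49.1% in IMQ+IDMF. Sprr2f, Sprr2i and Sprr2k together made up 9.41% in IMQ, 2.76% and 4.10% in IMQ+VEH and 2.89% in IMQ+IDMF. The 2 genes with FPKM but no counts, Sprr2a1 and Sprr2a2, were assigned 11.4% in IMQ, 13.3% and 14.6% in IMQ+VEH and 16% in IMQ+IDMF. How reads shared with Sprr2a3 (945 FPKM in IMQ, not in this sum) were divided is not known. The shares of all 9 genes depend on that division. Sprr2d ranked first in every library and Sprr2k last.

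**Figure D3:**
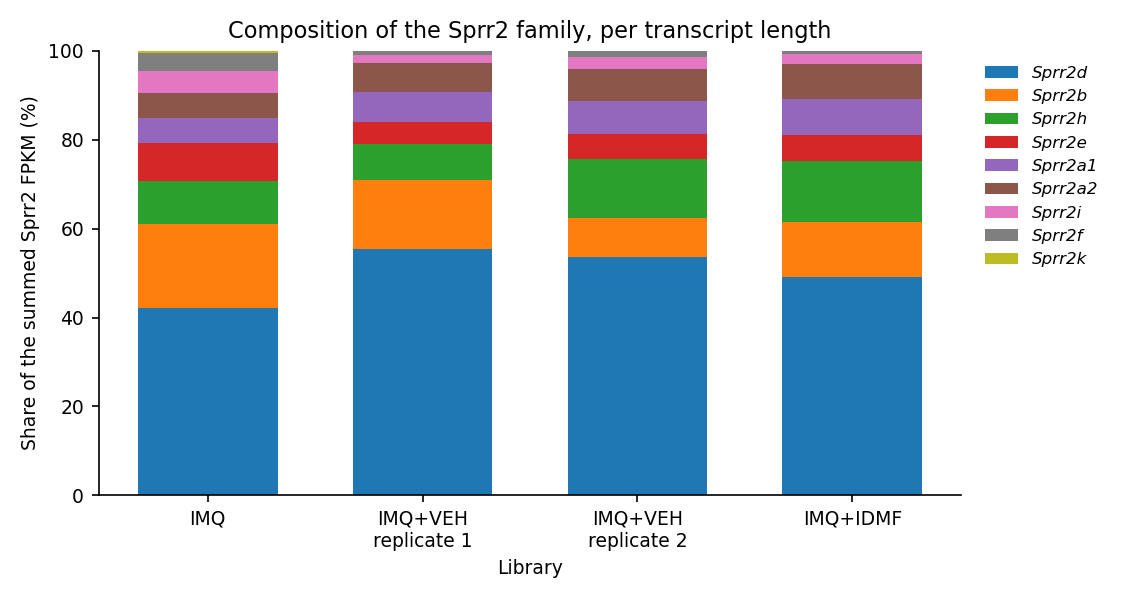
Stacked bars of each gene's share (percent) of the summed FPKM of the 9 Sprr2 genes, 1 bar per library. Sprr2d takes 42.2% in IMQ and 49.1% to 55.4% in the others, and the bands of Sprr2f, Sprr2i and Sprr2k narrow outside IMQ. The bands of Sprr2a1 and Sprr2a2 may hold reads of Sprr2a3, which is not in the sum.

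A sum over the members does not depend on how counted reads were divided among the 7 with counts. It does depend on whether reads shared among these 7 were counted or dropped, which is not known. It also depends on how reads shared with Sprr2a1, Sprr2a2 and Sprr2a3 were assigned. The members summed to 3471 CPM in IMQ, 1091 and 953 in IMQ+VEH and 758 in IMQ+IDMF. IMQ+VEH was 3.40-fold below IMQ on this sum, with log2 differences of -1.67 and -1.86 for the single libraries. The summed FPKM of all 9, which includes Sprr2a1 and Sprr2a2, was 5627, 2010, 1635 and 1341 in the same order, 3.10-fold lower. For Sprr2a1, the log2 ratio of FPKM to IMQ was -1.26 and -1.41 in IMQ+VEH and -1.57 in IMQ+IDMF. For Sprr2a2 it was -1.26, -1.44 and -1.57. No test was made on these sums or on FPKM.

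Whole skin was sequenced, so fewer cells of a type and less RNA per cell cannot be told apart. Markers of granular and spinous keratinocytes, the layers that make SPRR proteins, summed to 61862 CPM in IMQ, 47862 and 62738 in IMQ+VEH and 53282 in IMQ+IDMF. Of the 11 tested markers of that list, 0 were called (0 also had an unadjusted p under 0.05) and the median log2 fold change of IMQ+VEH against IMQ was -0.31. Both IMQ+VEH libraries lay below IMQ for 7 of the 11, and the median log2 CPM differences to IMQ were -0.59 in replicate 1 and -0.01 in replicate 2. Basal keratinocyte markers summed to 16364 CPM in IMQ, 9812 and 10389 in IMQ+VEH and 12253 in IMQ+IDMF, with 0 of 9 called. Their median log2 fold change was -0.14, and both IMQ+VEH libraries lay below IMQ for 5 of 9 and above it for 1. Stress keratinocyte markers such as Krt6a and S100a8 summed to 25696 CPM in IMQ, 11888 and 8580.2 in IMQ+VEH and 8252 in IMQ+IDMF. Of these, 0 of 6 were called, and the median log2 fold change was -1.40. At an unadjusted p under 0.05, 4 of 6 were lower, against 2.55% of all tested genes. Hair follicle markers were lower, with 58.9 and 68.1 against 149 CPM. Their median log2 fold change was -2.45, near the -2.44 of the 7 tested Sprr2 members. Of 12 tested, 5 were called lower and 9 were lower at an unadjusted p under 0.05. Over all tested genes these shares were 0.325% and 2.55%. Adipocyte markers were higher (2093 and 1455 against 534 CPM, 4 of 7 called higher, against 0.338% of all tested genes, and 7 at an unadjusted p under 0.05). Fibroblast markers had 6624 and 3475 against 1803 CPM, with 0 of 8 called and 6 higher at an unadjusted p under 0.05. Sebaceous gland markers had 5358 and 5708 against 2537 CPM, skeletal muscle markers 22539 and 15803 against 11898, and endothelial markers 219 and 104 against 101, with 0 of 7 called in each. Of these, 4 sebaceous, 0 muscle and 2 endothelial genes were higher at an unadjusted p under 0.05, as were 943 of all 15068 tested genes. Macrophage and dendritic markers had 798 and 449 against 545 CPM (0 of 8 called, 2 higher at an unadjusted p under 0.05). T cell markers had 10.2 and 7.41 against 11.9 CPM (0 of 6 called) and neutrophil markers 55.9 and 73.6 against 69.0 (0 of 3). The part of these tissue differences in the Sprr2 values was not tested. With 1 IMQ library, the lotion and the individual mouse cannot be told apart.

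IMQ+IDMF was set against IMQ+VEH, since both received a lotion. IMQ+IDMF is 1 library, so the compound and the individual mouse cannot be told apart. None of the 7 tested Sprr2 members passed the threshold, and 1 (Sprr2f) had an unadjusted p under 0.05. EdgeR called 0% of all 15068 tested genes, and 2.03% had an unadjusted p under 0.05. DESeq2 also called 0 genes. The fitted log2 fold changes of the members were all below 0 and ran from -1.14 for Sprr2f to -0.04 for Sprr2h. IMQ+IDMF lay below both IMQ+VEH libraries for 5 members (Sprr2d, Sprr2e, Sprr2f, Sprr2i and Sprr2k), where 27.5% of all tested genes did so.

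Sprr2f had the largest of these differences, with 109 counts in IMQ+IDMF (exact 95% Poisson interval 89.5 to 131) against 248 and 262 in IMQ+VEH (218 to 281 and 231 to 296). Its level in IMQ+IDMF was 2.21-fold below the IMQ+VEH level (log2 fold change -1.14, SE 0.34, unadjusted p = 0.00518, adjusted p of 1 in edgeR). On the log2 CPM scale it lay -0.85 from replicate 1 and -1.38 from replicate 2, while the pair differed by 0.53. Sprr2d had -0.55 (SE 0.44), and lay -0.66 and -0.44 from the single libraries. Sprr2i had -0.44 (SE 0.28), with -0.26 and -0.59. The values for Sprr2e and Sprr2k were -0.22 (SE 0.27) and -0.29 (SE 0.78).

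Sprr2b and Sprr2h had no constant direction. Sprr2b in IMQ+IDMF was below IMQ+VEH replicate 1 by a log2 difference of -0.80 and above replicate 2 by 0.17. Sprr2h was above replicate 1 by 0.23 and below replicate 2 (-0.27). In fits without the library in question, Sprr2b turned to 0.17 without replicate 1 and Sprr2h to 0.24 without replicate 2. Summed over the family, IMQ+IDMF was 1.35-fold below IMQ+VEH in CPM, with log2 differences of -0.53 and -0.33 to the single libraries. The 2 IMQ+VEH sums themselves had an SD of 0.14 on that scale. Macrophage and dendritic markers were lower in the same library (304 CPM against 798 and 449, 8 of 8 below both IMQ+VEH libraries), and so were fibroblast markers (2302 against 6624 and 3475 CPM, 8 of 8 below both). Hair follicle markers were higher (106 against 58.9 and 68.1 CPM, 12 of 12 tested above both, against 27.7% of all tested genes). Basal keratinocyte markers were also higher (12253 against 9812 and 10389 CPM, 9 of 9 above both). Granular and spinous keratinocyte markers had 53282 against 47862 and 62738 CPM (3 of 11 below both, 0 above both). Stress keratinocyte markers had 8252 against 11888 and 8580 CPM (3 of 6 below both, 1 above both). Of the macrophage and fibroblast lists 5 genes each were lower, and of the hair follicle list 8 were higher, at an unadjusted p under 0.05. Of the basal, granular and stress keratinocyte lists 0 genes passed that level. None of these list members passed the adjusted threshold, and their part in the Sprr2 values was not tested.

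**Figure D4:**
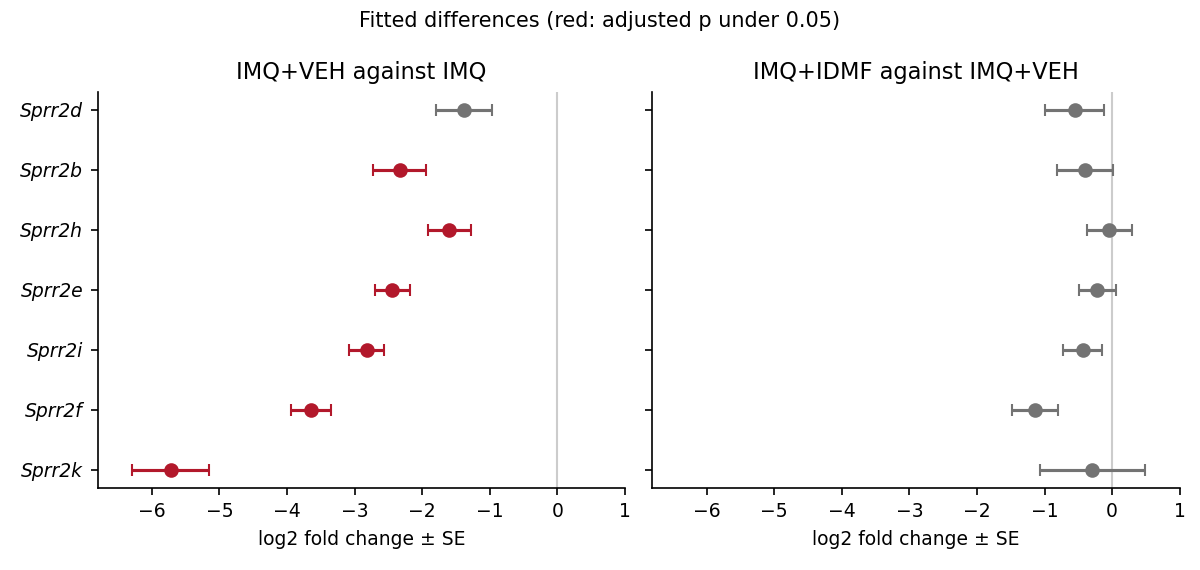
Fitted log2 fold changes of the 7 tested Sprr2 genes with standard errors (bars), for IMQ+VEH against IMQ (left) and IMQ+IDMF against IMQ+VEH (right); red marks an adjusted p under 0.05. On the left all points lie between -5.72 and -1.38, and on the right between -1.14 and -0.04 with none in red.

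IMQ+IDMF against IMQ is 1 library against 1, with no replicate check, so sizes are given without a test. It has its IMQ library in common with the first comparison and its IMQ+IDMF library in common with the second. The 7 counted members were more than 2-fold lower in IMQ+IDMF, as were 4.51% of all tested genes. The log2 CPM differences (2 counts added on average to each library) were -1.64 for Sprr2h, -1.93 for Sprr2d, -2.66 for Sprr2e, -2.73 for Sprr2b, -3.25 for Sprr2i, -4.77 for Sprr2f and -5.66 for Sprr2k. The family sum was 4.58-fold lower in CPM. Set against all 3 other libraries, IMQ was more than 2-fold higher for the same 7 members and for 1.1% of all tested genes.

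The other small proline-rich genes were read from the same fit. Sprr2a3, the Sprr2a copy that had counts, had 886 CPM in IMQ, 303 and 253 in the IMQ+VEH pair and 224 in IMQ+IDMF. Its log2 fold change of IMQ+VEH against IMQ was -1.67 (SE 0.35), and its edgeR adjusted p of 0.0559 missed the threshold. It was called lower in each of 5 alternatives, with adjusted p of 6.08e-05 (DESeq2) to 0.0451 (edgeR on total counts). Sprr1a and Sprr1b, which code for the related SPRR1 bridges, had 531 and 763 CPM in IMQ. Sprr1a had 192 and 256 in IMQ+VEH and 195 in IMQ+IDMF (-1.25, SE 0.33, edgeR adjusted p = 0.166). Sprr1b had 200.2 and 444 in IMQ+VEH and 323 in IMQ+IDMF (-1.25, SE 0.44, edgeR adjusted p = 0.364). Sprr3, an envelope gene of the oesophagus, had 16 counts in IMQ and 4, 4 and 1 in the others. Sprr4 had 369 counts in IMQ, 448 and 236 in IMQ+VEH and 199 in IMQ+IDMF (-0.08, SE 0.38). Of the 5 genes, 0 were called in either comparison. For IMQ+VEH against IMQ, 3 were lower at an unadjusted p under 0.05, against 2.55% of all tested genes.

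Envelope precursors other than SPRRs were represented by 40 tested genes. Of these, 8 fell in IMQ+VEH against IMQ and 0 rose: the 6 Lce3 genes, Stfa2 and Tchh. Over all tested genes 0.325% were called lower. Lce3b and Lce3a, late cornified envelope genes, had log2 fold changes of -3.76 (SE 0.27) and -3.28 (SE 0.31), with edgeR adjusted p of 0.000122 and 0.000557. The list's median was -0.40, against 0.0025 over all tested genes and -2.44 over the 7 Sprr2 members. Lor, which codes for loricrin, had 4577 CPM in IMQ, 3155 and 4806 in IMQ+VEH and 4323 in IMQ+IDMF (-0.20, SE 0.69). Ivl, which codes for involucrin, had 705 CPM in IMQ, 436 and 698 in the IMQ+VEH pair and 533 in IMQ+IDMF (-0.31, SE 0.42). These bridged proteins thus had values near IMQ in at least 1 IMQ+VEH library, where Sprr2 members had not; the difference between genes was not tested. In IMQ+IDMF against IMQ+VEH, 0 of the 40 were called. Lce3b had -1.21 (SE 0.31) and Lce3a -0.99 (SE 0.35), while Tchh had 0.92 (SE 0.41). Of the 40, 2 were lower and 1 was higher at an unadjusted p under 0.05. Over all tested genes 2.03% had such a p in either direction.

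Cross-linking and processing enzymes had 3 of 19 genes that fell in IMQ+VEH against IMQ: the kallikrein proteases Klk13 (-1.86, SE 0.30), Klk14 (-1.67, SE 0.33; adjusted p = 0.127 in edgeR on total counts, which ends its call) and Klk6 (-1.62, SE 0.33). That count also stands against 0.325% of all tested genes called lower. Tgm1, the main transglutaminase of the envelope, had -0.44 (SE 0.36). In IMQ+IDMF against IMQ+VEH 0 were called, and the protease gene Ctsl had -0.32 (SE 0.38).

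Of 34 regulators of the epidermal differentiation complex, 0 were called in either comparison and 5 had an unadjusted p under 0.05 in IMQ+VEH against IMQ, all lower, where 2.55% of all tested genes did so. Fos, an AP-1 subunit, had -1.03 (SE 0.31) and Ovol1 -0.69 (SE 0.27). Elf3, an ETS factor known to act on the human SPRR2A promoter, had 286 counts in IMQ, 165 and 92 in IMQ+VEH and 45 in IMQ+IDMF. Its log2 fold changes were -1.12 (SE 0.46) for IMQ+VEH against IMQ and -1.37 (SE 0.53) for IMQ+IDMF against IMQ+VEH. Prdm1 had -0.49 (SE 0.27) in the second comparison. Klf4 and Grhl3, factors of barrier formation, had -0.32 (SE 0.41) and -0.47 (SE 0.29) in the first. Nfe2l2, which codes for NRF2, had -0.40 (SE 0.26) in the first and 0.12 (SE 0.26) in the second. Fosl1 had 6, 5, 37 and 24 counts in IMQ, the IMQ+VEH pair and IMQ+IDMF.

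Among cytokines and receptors known to induce SPRR genes, 18 of 27 listed genes were tested. Il20ra, a receptor chain for IL-20 family cytokines, was the 1 that fell in IMQ+VEH against IMQ (-1.78, SE 0.34, edgeR adjusted p = 0.0392), a call that ended on total counts (adjusted p = 0.128). Among all tested genes the share called lower was 0.325%. Il13ra1 had -0.46 (SE 0.30), and Il22ra1 had -0.34 (SE 0.28) in IMQ+IDMF against IMQ+VEH, where 0 were called.

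**Figure D5:**
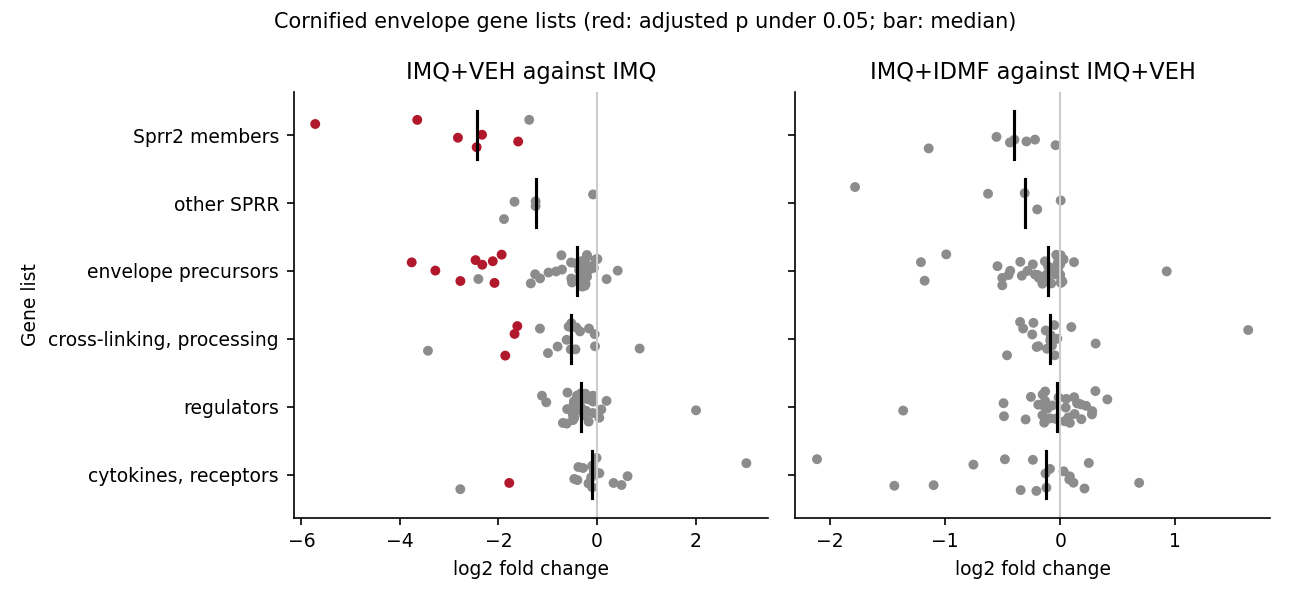
Log2 fold changes of the tested genes of 6 lists, 1 point per gene, for IMQ+VEH against IMQ (left) and IMQ+IDMF against IMQ+VEH (right, on its own axis); red marks an adjusted p under 0.05, black bars the list medians, and vertical scatter within a list has no meaning. On the left the Sprr2 median of -2.44 lies lowest, and red points stand in the Sprr2, envelope precursor, processing and cytokine lists; on the right none are red.

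The genes whose pattern over the 4 libraries was most like that of the summed Sprr2 members were found by the distance between log2 CPM profiles, each centred on its own mean, among 10117 genes. The median distance was 1.71. The nearest was Sprr2a3 (0.159), followed by Stfa2, a cysteine protease inhibitor of keratinocytes (0.225), Alox8, a lipoxygenase (0.233), Pglyrp4, a peptidoglycan recognition protein (0.26), Klk13 (0.302), the stress keratin Krt6a (0.312), Akr1c18 (0.334) and Il20ra (0.39). Krt6a had 3928 CPM in IMQ, 1233 and 908 in IMQ+VEH and 978 in IMQ+IDMF. All 8 were highest in IMQ, which follows from choosing genes by their likeness to this profile. Over 4 libraries, of which 1 stands well above the rest, this likeness is a description and carries no test.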

How the data were processed

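Libraries were single-end reads of 50 cycles. The authors deposited for each library 1 table of raw counts and FPKM values per gene symbol, per the file headers. Per the submitters' processing notes, HTSeq, Cufflinks and TopHat2 were used, with GRCm38 and mm10 as builds. Their versions and the annotation were not found in the labels or headers. The strand setting and the treatment of reads with several matches were not found there either. Groups came from the labels, which call the libraries independent biological replicates.

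Counts were tested with the two-sided quasi-likelihood F test of edgeR 4.0.16 (R 4.3.3) on TMM library sizes with 1 mean per group, after filterByExpr with a count of about 10 and a total of 15. P-values were adjusted by Benjamini-Hochberg over 15068 genes. All 3 groups share the spread of the IMQ+VEH pair (1 residual and 11.2 prior degrees of freedom), so the single libraries are assumed to vary like that pair. The SE is the size of the log2 fold change over the square root of its F. The fit was also run on simulated counts that had the same spread in all genes and libraries. That run cannot check whether the single libraries vary like the IMQ+VEH pair. Log2 CPM used a prior count of 2.

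The 10 members and the gene lists were chosen with earlier results of these data known. All members and other SPRR genes are named, as are 8 fixed genes (Flg was not analysed here); from each further pathway list, up to 2 genes per comparison with the smallest unadjusted p and a mean log2 CPM of at least 1 are named, and genes called by the fit are listed. Likeness was computed for genes above a mean log2 CPM of 3. Sequences are from GENCODE M21 (transcripts) and RefSeq GRCm38.p6 (promoters, 9 of 10 members matched). Alternatives were DESeq2 1.42.0, other scalings and filters, leaving out each IMQ+VEH library, and FPKM.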

Additional observations from a re-analysis of the deposited data

Results flagged for a closer look

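Sprr2a1 and Sprr2a2 showed a signal in the FPKM values, which the count tests do not use, while their counts were 0 in all 4 libraries. Sprr2a1 had an FPKM of 320.2 in IMQ, 134 and 120.5 in IMQ+VEH replicates 1 and 2, and 108 in IMQ+IDMF. Sprr2a2 had 318, 133, 117 and 107 in the same order. These values are above the 0.126 to 0.16 FPKM that 3 counts would be worth at the rate of Sprr2a3. How shared reads were divided among the Sprr2a copies for FPKM is not known, so which copy gave this signal cannot be told. Healthy skin was not analysed here, so these FPKM values have no control level beside them.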

How the results depend on the processing

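The count of Sprr2 members called for IMQ+VEH against IMQ was 6 under DESeq2 size factors, total counts, no filter and a mean count of at least 50, and 7 in DESeq2, which added Sprr2d. For IMQ+IDMF against IMQ+VEH it was 0 in each. Of 35 member values under these 5 alternatives per comparison, 0 reversed. Over all genes, the calls for IMQ+VEH against IMQ went from 100 to 424 without a filter and to 195 in DESeq2, and those for IMQ+IDMF against IMQ+VEH from 0 to 16 without a filter; the cause was not tested. The log2 difference of the summed CPM without Sprr2d, chosen after seeing the data, was -2.24 for IMQ+VEH against IMQ, -0.25 for IMQ+IDMF against IMQ+VEH and -2.49 for IMQ+IDMF against IMQ. Leaving out 1 IMQ+VEH library gave sums of -1.86 to -1.67, -0.53 to -0.33 and -2.20 for these comparisons. It left no residual degrees of freedom, so these are values with no test. Sprr2b moved most (-2.90 without replicate 1, -1.93 without replicate 2). Of the other named genes, Sprr1a and Sprr1b passed for IMQ+VEH against IMQ in 2 and 1 of the 5 alternatives. Values near 0 changed sign: Ctsl for IMQ+VEH against IMQ (0.019 on total counts) and Sprr1b for IMQ+IDMF against IMQ+VEH (-0.0062 with DESeq2 size factors, -0.0068 in DESeq2). For Sprr2k, counts of 6 to 9 outside IMQ limit precision, and on the log2(FPKM + 1) scale its difference shrank to -4.21. No paired analysis was possible because IMQ and IMQ+IDMF are single libraries.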
